A study of Mus musculus with 23 samples.

Results

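The imprinted Zdbf2 and Gpr1 locus was described from every methylation window with its midpoint in chromosome 1:63170000-63320000 of mouse build GRCm38, a stretch of 150 kb. Of the 333984 windows in the table of embryonic day (E) 6.5 libraries, 31 belonged to the locus, and of the 402812 windows in the E7.5 tables, 34 did. The values are percent methylation from post-bisulphite adaptor tagging (PBAT), a bisulphite sequencing method for small amounts of DNA, in epiblast, which forms the embryo proper, and extra-embryonic ectoderm (ExE), which contributes to the placenta. Wild-type embryos were reciprocal hybrids, B6/CAST with a C57BL6/Babr mother and a CAST/Ei father and CAST/B6 with the parents exchanged. The third group, matDKO/CAST, had mothers floxed for Dnmt3a and Dnmt3b on a B6/129 background with Zp3-cre, which deletes both genes in the growing oocyte, and CAST fathers. The embryos themselves carried 1 deleted copy of each gene from the mother and had received an egg without the methylation that these enzymes deposit.

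At E6.5 there were 15 libraries, each from a pool of 4 epiblasts or 8 ExE: 3 B6/CAST, 3 CAST/B6 and 2 matDKO/CAST epiblast libraries, and 2 B6/CAST, 2 CAST/B6 and 3 matDKO/CAST ExE libraries. They were made from input chromatin of an immunoprecipitation experiment that had been cut with micrococcal nuclease. The 8 E7.5 libraries each held a single wild-type embryo, 2 for each cross and tissue, and only these were also split into maternal and paternal alleles by reads over strain-specific variants. Mean methylation over autosomal windows was 65.9 to 79.4% in wild-type E6.5 epiblast, 53.5 to 66.2% in wild-type E6.5 ExE, 71.7 to 75.6% in E7.5 epiblast and 56.0 to 59.2% in E7.5 ExE. In matDKO/CAST it was 53.1 to 54.7% in epiblast and 39.6 to 41.8% in ExE. The tables give no read coverage, so the depth behind a percentage is unknown. At E6.5 the share of autosomal windows with a value ran from 72.2% in matDKO/CAST epiblast 3 to 99.9% in B6/CAST ExE 2. It was 89.2% in matDKO/CAST epiblast 1 and 89.8% in B6/CAST epiblast 3. As a check of the tissue labels at E7.5, the window at the start of the trophoblast gene Elf5 stood at 80.4 to 92.6% in epiblast and 60.8 to 69.1% in ExE, and that at the start of the pluripotency gene Pou5f1 at 11.4 to 25.0% in epiblast and 37.2 to 42.1% in ExE. Nanog, a further pluripotency gene, was also lower in epiblast, at 37.4 to 45.5% against 51.6 to 62.6%. Elf5 only followed the direction of most windows, since 73.8% of all autosomal windows at E7.5 were higher in epiblast without overlap. ExE was higher without overlap at 1.35%, as at Pou5f1 and Nanog. In the wild-type E6.5 libraries the tissues were apart at Pou5f1, at 1.79 to 10% in epiblast and 15.9 to 77.8% in ExE, but overlapped at Elf5 (75.2 to 95.2 against 69.9 to 85.2%) and Nanog (16.7 to 69.4 against 58.0 to 81.2%).

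Zdbf2 encodes a zinc finger protein and is expressed from the paternal allele. In the early embryo a long transcript, Liz, starts inside the neighbouring gene Gpr1, a G protein-coupled receptor gene on the opposite strand, and runs across the interval into Zdbf2 from the paternal chromosome. The start of Liz lies in a mark that is methylated in the oocyte and not in sperm, and transcription of Liz is known to be followed by methylation of the paternal allele upstream of Zdbf2. The locus is therefore known for opposite marks at its opposite ends, a maternal one inherited from the gamete and a paternal one acquired after implantation. In the annotation (GENCODE M21) Gpr1 spans 63182691 to 63214543 on the minus strand and Zdbf2 63273265 to 63314576 on the plus strand. Liz is annotated as Platr12, from 63200313 to 63207967 on the plus strand. Between Gpr1 and Zdbf2 lie 1700039I01Rik, a short unclassified transcript, and Gm11608, a long non-coding RNA on the minus strand that begins next to the Zdbf2 start.

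Windows are named here by the distance of their midpoint from the annotated start of Zdbf2. The E7.5 windows fell into 4 below Gpr1, 6 in Gpr1, 4 on the Gpr1 side of the midpoint of the interval, 10 on its Zdbf2 side, 9 in Zdbf2 and 1 beyond it. The corresponding numbers at E6.5 were 4, 5, 4, 9, 8 and 1, and the windows of the E6.5 and E7.5 tables have different borders. The E7.5 windows were 285 to 12285 bp long and held 45 to 79 CpG sites in the reference.

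The places compared below are shown by 4 sequences: the bases before the start of Liz and of Zdbf2, and the 300 bases richest in CpG sites in the windows called between alleles in epiblast, centred 12.6 kb and 10.2 kb upstream of Zdbf2. Methylation was measured over whole windows and not for these stretches alone. All are on the plus strand of GRCm38, with CpG sites, the positions where methylation was measured, in capitals. The first 2 come from the RefSeq promoter table of GRCm38.p6, which lists both as starts of Zdbf2 transcripts, and lie at chr1:63200108-63200312 and chr1:63273019-63273264. The others are reference sequence at chr1:63261378-63261677 and chr1:63263884-63264183.
Liz start: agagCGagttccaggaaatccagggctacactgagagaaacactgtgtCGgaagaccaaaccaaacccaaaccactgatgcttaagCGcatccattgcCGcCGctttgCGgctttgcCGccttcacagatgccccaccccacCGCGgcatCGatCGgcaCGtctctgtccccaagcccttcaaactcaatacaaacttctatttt
Zdbf2 start: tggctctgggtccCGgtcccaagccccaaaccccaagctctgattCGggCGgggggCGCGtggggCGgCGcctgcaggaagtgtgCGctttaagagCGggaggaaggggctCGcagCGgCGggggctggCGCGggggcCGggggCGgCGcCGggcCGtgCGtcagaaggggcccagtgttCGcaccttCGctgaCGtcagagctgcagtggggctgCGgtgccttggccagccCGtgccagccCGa
12.6 kb window: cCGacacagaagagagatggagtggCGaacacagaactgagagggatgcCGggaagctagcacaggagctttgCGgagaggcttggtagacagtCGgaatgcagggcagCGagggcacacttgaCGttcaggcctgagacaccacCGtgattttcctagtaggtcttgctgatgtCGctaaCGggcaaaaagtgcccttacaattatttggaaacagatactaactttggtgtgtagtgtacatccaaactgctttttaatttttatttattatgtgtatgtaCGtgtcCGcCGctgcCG
10.2 kb window: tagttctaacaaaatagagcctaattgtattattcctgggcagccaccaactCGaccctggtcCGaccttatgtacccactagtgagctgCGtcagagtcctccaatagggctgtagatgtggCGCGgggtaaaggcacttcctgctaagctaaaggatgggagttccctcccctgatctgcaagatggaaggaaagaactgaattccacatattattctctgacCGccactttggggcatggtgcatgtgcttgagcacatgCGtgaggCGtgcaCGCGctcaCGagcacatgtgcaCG
The Zdbf2 start is the densest, with 26 CpG sites in 246 bases, against 12 in 205 bases before Liz and 14 and 12 in the 300 bases of the upstream windows. In the full 300-base promoter windows of the RefSeq table, Zdbf2 had 38 CpG sites, a number reached by 4.95% of 32851 promoters, and Liz had 15, reached by 34.6%. The median promoter had 7.

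The question of which parental allele carries the methylation could be asked at E7.5. In epiblast the maternal allele was nearly unmethylated and the paternal allele highly methylated across a block upstream of Zdbf2, while the order was turned around at the start of Liz inside Gpr1. In ExE both mean differences had the same direction, with a smaller paternal excess upstream of Zdbf2 and a larger maternal excess at Liz, although no difference between the tissues passed the adjusted test. Of the 34 windows, 32 had an allele value in at least 1 library, 2 had none and 15 had all 16 values. Mean methylation of the maternal and paternal alleles over the genome was alike, 76.7 and 76.8% in epiblast and 60.7 and 60.8% in ExE.

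**Figure D1:**
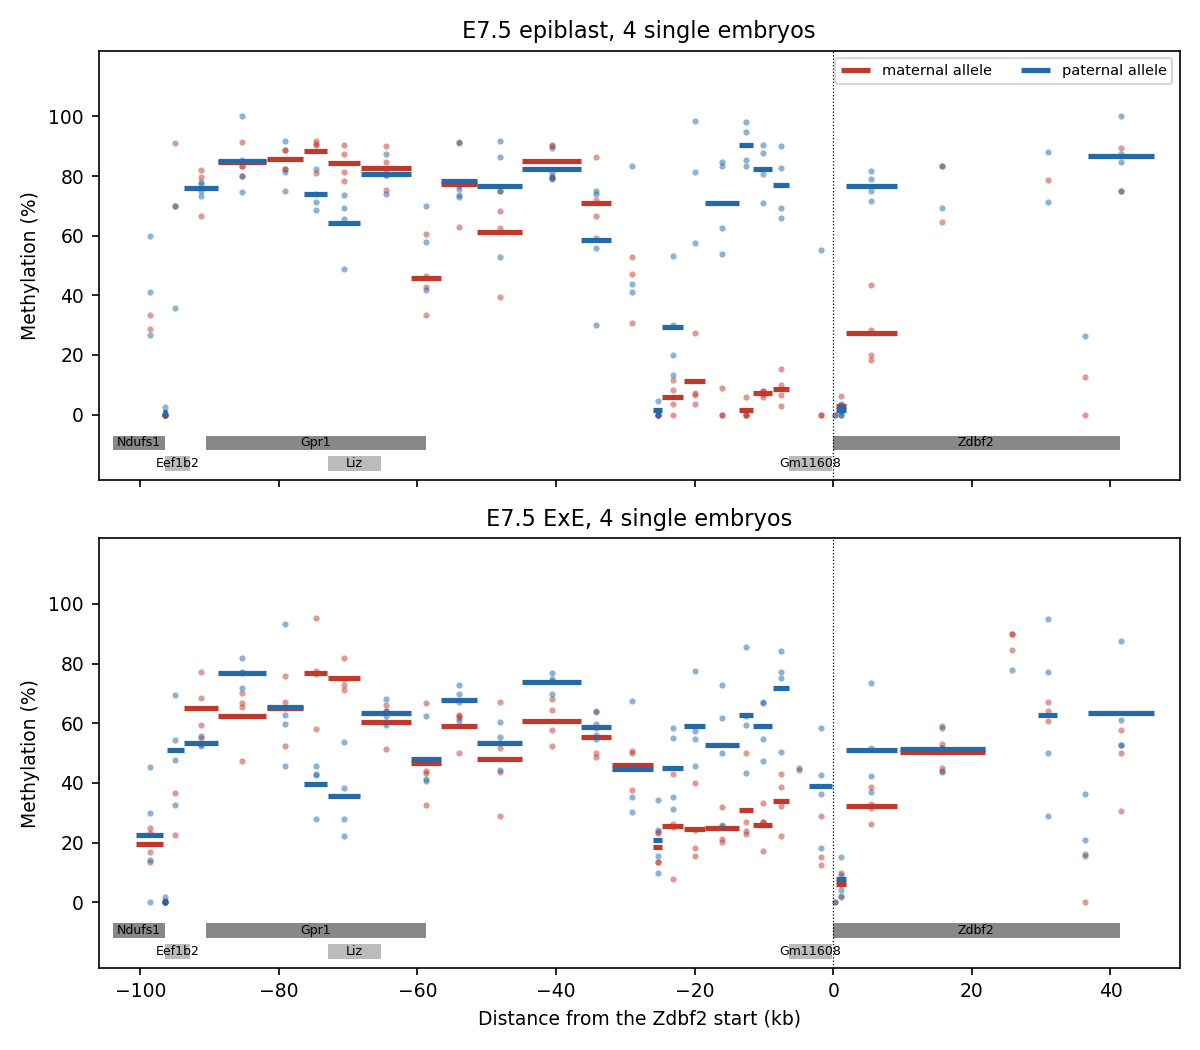
Percent methylation of the maternal and paternal allele in each E7.5 library (points) for the windows of the locus, against distance of the window midpoint from the Zdbf2 start in kb; coloured bars are means over all 4 libraries, drawn at the length of the window where an allele had a value in each, grey bars mark the genes, and the panels are epiblast and ExE. The alleles separate upstream of Zdbf2, furthest in epiblast at 12.6 kb (maternal 1.5%, paternal 90.4%), and cross over at Liz, where the maternal allele is the higher.

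At the window centred 12.6 kb upstream of Zdbf2 (chr1:63259682-63261682), between 1700039I01Rik and Gm11608, the maternal allele in epiblast was at 0, 0, 6 and 0% in B6/CAST 1, B6/CAST 2, CAST/B6 1 and CAST/B6 2, and the paternal allele at 98.1, 85.3, 83.3 and 94.6%. The alleles stood far apart in all 4 embryos and in both crosses. The maternal minus paternal difference was -88.9 points (SD 9.40, n = 4; limma adjusted p = 0.0284). In the same order, ExE had maternal values of 22.9, 24.0, 50 and 26.9% and paternal values of 85.7, 62.3, 43.2 and 59.5%. Here the alleles overlapped, since CAST/B6 1 had the paternal allele below the maternal, and the mean difference was -31.7 points (SD 28.8, n = 4; limma adjusted p = 0.777).

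The adjacent window centred at 10.2 kb (chr1:63261683-63264498), which holds the last of the sequences above, had maternal values of 7.07, 7.89, 8.06 and 6.06% and paternal values of 87.7, 80.8, 71.1 and 90.3% in epiblast. The maternal allele kept to 6.06 to 8.06% over embryos of opposite cross, and no paternal value came near it. The difference was -75.2 points (SD 9.42, n = 4; adjusted p = 0.0451). In ExE the maternal values were 33.3, 26.7, 17.2 and 26.9% and the paternal values 54.7, 67.1, 47.5 and 66.7%. The alleles did not overlap in ExE either, at a mean difference of -32.9 points (SD 9.01, n = 4; adjusted p = 0.777).

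At 7.55 kb (chr1:63264506-63266927), where Gm11608 ends, the epiblast had maternal values of 9.85, 2.78, 15.4 and 6.67% and paternal values of 82.8, 65.8, 69.4 and 90.0%. In ExE the maternal values were 38.6, 42.9, 32.2 and 22.1% and the paternal values 77.1, 75.2, 50.3 and 84.1%. The paternal allele was the higher in every embryo of both tissues, by 68.3 points in epiblast (SD 12.6, n = 4; adjusted p = 0.158) and 37.8 points in ExE (SD 18.3, n = 4; adjusted p = 0.777). Neither difference passed an adjusted p of 0.05.

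The block reached further from Zdbf2. At 16 kb (chr1:63254819-63259681) the epiblast paternal allele was at 53.8, 62.5, 83.3 and 84.6%, and the maternal allele at 0, 9.09 and 0% in the 3 libraries with a value (not B6/CAST 2). At 20 kb (chr1:63251705-63254818) the maternal allele was at 27.4, 6.67, 3.57 and 7.14% and the paternal at 81.2, 57.5 and 98.3%, with no paternal value in CAST/B6 1. The alleles did not overlap at either window in epiblast, although windows lacking a library were not tested there in the main fit. The fit that allowed 1 missing library per cross tested 24 windows of the locus, both of these among them. It called 0, and 0 of 305279 over all autosomal windows. In ExE the 20 kb window had maternal values of 24.2, 40.1, 18.2 and 15.5% and paternal values of 77.6, 54.8, 45.8 and 57.5%, again without overlap. At 16 kb in ExE the maternal values were 31.9, 21.2, 26.0 and 20.2% against paternal values of 61.9, 72.9, 25.5 and 50%, and CAST/B6 1 was the embryo with no paternal excess.

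The block ended at the CpG-rich window over 1700039I01Rik. At 23.2 kb (chr1:63248548-63251617) the epiblast maternal values were 11.8, 8.33, 0 and 3.45% and the paternal values 30.2, 20, 13.3 and 53.3%, a difference of -23.3 points (SD 17.9, n = 4; adjusted p = 0.941). The paternal allele was thus the higher in 4 of 4 embryos, but at lower levels than nearer to Zdbf2. The ExE maternal values were 7.69, 25.2, 26.3 and 42.9% and the paternal values 35.3, 31.2, 58.3 and 54.9%, a paternal excess in every embryo, by 19.4 points on average, with overlap of the ranges. At 25.3 kb (chr1:63247315-63248546), the window of 1700039I01Rik, the epiblast maternal allele was at 0% in the 3 libraries with a value (not B6/CAST 1) and the paternal at 0, 0, 1.25 and 4.55%. In ExE the maternal values were 13.6, 23.2, 13.3 and 23.5% and the paternal values 9.88, 34.3, 24.4 and 15.4%, a difference of -2.59 points (adjusted p = 0.960). At 29 kb (chr1:63241270-63247314) the embryos did not share a direction in either tissue. The epiblast maternal values were 52.8, 47.2 and 30.8% and the paternal values 41.2, 43.8 and 83.3%, with neither in CAST/B6 2. In ExE they were 45.6, 50.6, 37.5 and 50% and 30.2, 35.2, 45.5 and 67.4%, a difference of 1.34 points (adjusted p = 0.982).

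Close to Zdbf2 few allele values were available. The 4.89 kb window had no value in epiblast and, in ExE, a maternal value of 44.4% in B6/CAST 1 and a paternal value of 45% in B6/CAST 2. The 1.78 kb window had maternal values of 12.5, 15 and 28.9% in ExE (not B6/CAST 1) and paternal values of 58.3, 36.2, 18.2 and 42.7%. The paternal allele was the higher in the 3 embryos with both, by 13.6 points on average. In epiblast it had a maternal value of 0% in both CAST/B6 embryos and a paternal value of 55.1% in B6/CAST 1. Both windows over the Zdbf2 start, centred 0.027 and 0.319 kb downstream of it, were between 0 and 2.87% in every E7.5 library before the split. After it the window at 0.027 kb had no value, and that at 0.319 kb had 4, each at 0%. At 1.14 kb downstream the alleles were between 0 and 15.2% in both tissues. The Zdbf2 sequence shown above lies partly in the window at 0.027 kb and partly in the 1.78 kb window, which before the split was at 13.6 to 23.5% in epiblast and 11.5 to 22.8% in ExE.

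A further window with a paternal excess lay inside Zdbf2. At 5.48 kb downstream of the start (chr1:63275072-63282411) the epiblast maternal values were 28.3, 43.3, 20 and 18.2% and the paternal values 71.7, 75, 78.9 and 81.6%. The alleles did not overlap, and the difference was -49.4 points (SD 14.6, n = 4; adjusted p = 0.176). In ExE the maternal values were 38.7, 33, 26.1 and 31.7% and the paternal values 51.7, 36.9, 73.5 and 42.3%, a mean difference of -18.7 points (SD 19.5, n = 4; adjusted p = 0.777). The paternal allele was the higher in 4 of 4 ExE as well.

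At the start of Liz, inside Gpr1, the maternal allele was the more methylated. The window over the first bases of the transcript, 70.6 kb upstream of Zdbf2 (chr1:63200318-63205021), had epiblast maternal values of 78.3, 87.5, 90.5 and 81.2% and paternal values of 65.5, 48.8, 69.2 and 73.5%. In ExE the maternal values were 72.8, 74.7, 71.3 and 82.0% and the paternal values 38.3, 22.3, 27.8 and 53.6%. The alleles did not overlap in either tissue, and the gap was 20.1 points in epiblast (SD 13.6, n = 4; adjusted p = 0.941) and 39.7 points in ExE (SD 10.5, n = 4; adjusted p = 0.777).

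The window before it, 74.7 kb upstream of Zdbf2 (chr1:63196901-63200268), which holds the Liz sequence up to 63200268, had the same order of alleles. In epiblast the maternal values were 90.5, 81.0, 91.9 and 90.7% and the paternal values 71.2, 68.8, 74.0 and 82.4%. In ExE they were 76.5, 58.0, 77.5 and 95.3% and 42.9, 42.5, 27.9 and 45.8%. The maternal allele was the higher in all 8 libraries, by 14.4 points in epiblast (SD 5.11, n = 4; adjusted p = 0.941), where the ranges overlapped, and by 37.0 points in ExE (SD 16.3, n = 4; adjusted p = 0.777), where they did not. The maternal excess was not seen at the next windows of Gpr1. At 64.5 kb (chr1:63205077-63212347), the next window towards Zdbf2, the epiblast maternal values were 75.3, 84.6, 90 and 81.0% and the paternal values 80.4, 80.4, 87.5 and 74.0%. In ExE they were 60.4, 51.2, 64.1 and 66.1% and 68.0, 59.5, 62.5 and 64.1%. The alleles overlapped in both tissues, and the difference was 2.15 points in epiblast (adjusted p = 0.981) and -3.08 in ExE (adjusted p = 0.916). On the other side, at 79.1 kb, it averaged 1.94 points over the 3 epiblasts with both alleles and -0.293 over 4 ExE, where it was below 0 in B6/CAST and 12.9 and 19.4 in CAST/B6. At 85.3 kb it was -0.471 in epiblast and -14.5 in ExE, where the paternal allele was the higher.

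Counted over the locus, 15 windows had both alleles in every library in epiblast and 24 in ExE, and these were tested in the main fit. In epiblast the maternal allele was the higher in 4 of 4 embryos at 2 windows and the paternal allele at 5, against 5.75 and 6% of all windows, and in ExE at 3 and 8, against 6.32 and 6.27%. The ranges of the alleles did not overlap at 1 window with the maternal and 5 with the paternal allele higher, against 1.22 and 1.3% of the 238529 autosomal windows tested. In ExE the ranges did not overlap at 2 windows with the maternal and 5 with the paternal allele higher, against 1.42 and 1.34% of 318358. The former were the windows at Liz, and the latter included, besides the upstream windows at 20, 10.2 and 7.55 kb, those at 85.3 kb in Gpr1 and 40.6 kb in the interval. By limma with Benjamini-Hochberg adjustment over all autosomal windows, 2 windows of the locus were called in epiblast, at 12.6 and 10.2 kb, both with the paternal allele higher, a call made for 0.0021% of windows in that direction and 0.00629% in the other. In ExE limma called none (background 0.00503% maternal higher and 0.0022% paternal higher), with 2 windows higher on the maternal and 9 on the paternal allele at an unadjusted p under 0.05, against 3.15 and 3.22% of all windows. Leaving out any 1 of the 4 epiblast embryos or fitting on the logit scale ended both calls. Over all autosomal windows the 20 calls fell to 0 with any embryo left out and to 5 on the logit scale, all with the maternal allele higher. With an embryo left out the differences at 12.6 and 10.2 kb were -93.2 to -84.5 and -80.5 to -69.9 points.

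**Figure D2:**
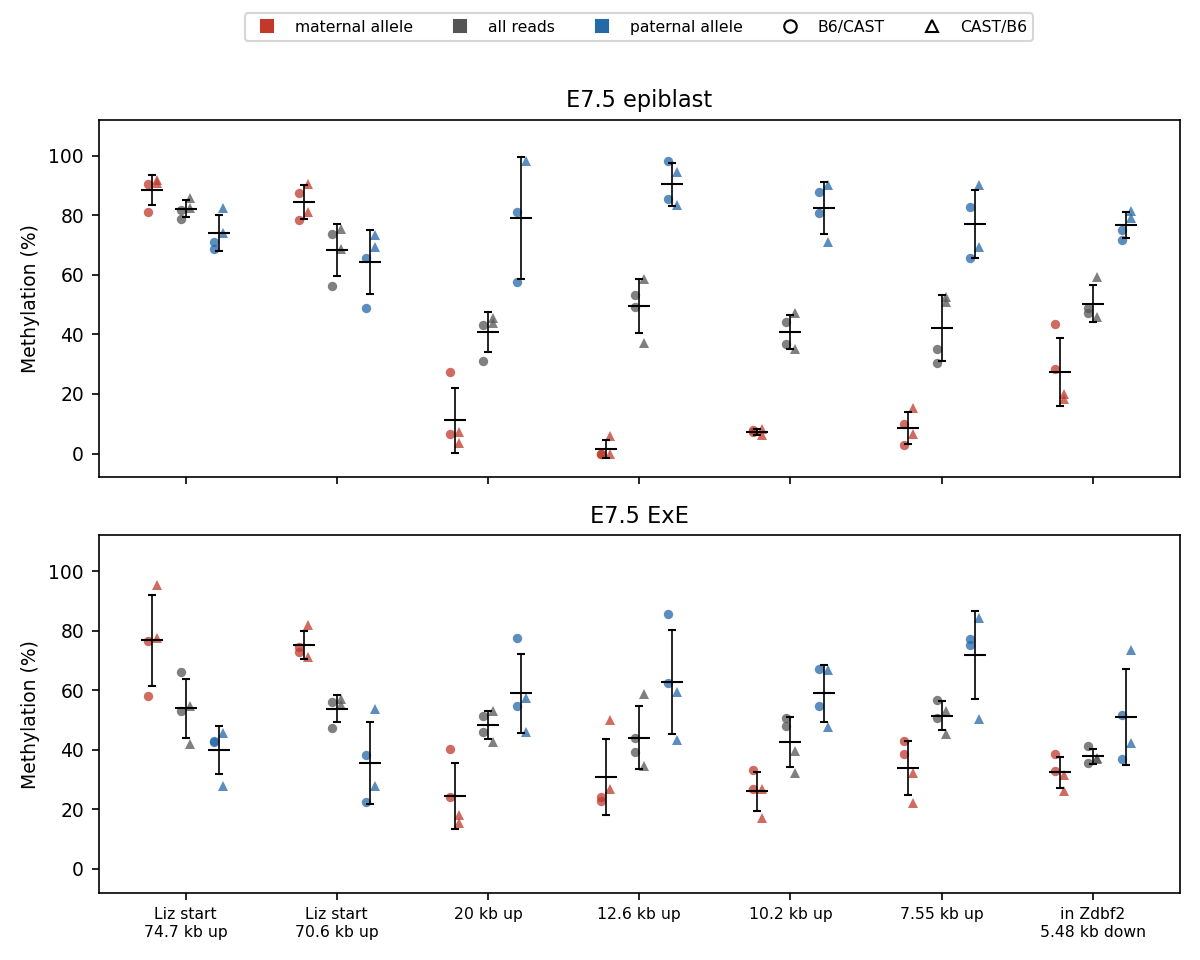
Percent methylation of each allele in each E7.5 library at the key windows of the locus, named by distance from the Zdbf2 start, with epiblast and ExE side by side; points are single embryos, grey points all reads without the split, horizontal bars means and vertical bars SD. In ExE the maternal allele sits higher and the paternal allele lower than in epiblast at 12.6 and 10.2 kb, and at Liz the paternal allele is the lower in ExE.

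The difference between tissues was next followed on each allele. Upstream of Zdbf2 the maternal allele was more methylated in ExE than in epiblast: it averaged 1.5% in epiblast and 31.0% in ExE at 12.6 kb, 7.27 and 26.0% at 10.2 kb, and 8.67 and 33.9% at 7.55 kb. The tissues did not overlap at these 3 windows, of 18 measured in every library on the maternal allele, and at 4 others the epiblast was the higher without overlap, while 0.522% of 262332 windows in the genome had a maternal allele higher in ExE without overlap and 45.6% had one higher in epiblast. The paternal allele averaged 90.4% in epiblast and 62.7% in ExE at 12.6 kb, with ranges that overlapped, 82.5 and 59.0% at 10.2 kb, without overlap, and 77.0 and 71.7% at 7.55 kb, with overlap. At 23.2 kb its mean was the higher in ExE, at 44.9 against 29.2%, with overlap. Of 19 windows on the paternal allele, 6 were higher in epiblast without overlap and 1 in ExE, over 1700039I01Rik (45.8 and 0.533% of 268065 windows). Over all windows the median epiblast minus ExE difference was 16 points on the maternal and 16.1 on the paternal allele, the opposite direction to the maternal values at these 3 windows. At Liz it was the paternal allele that was lower in ExE, by 34.3 points at 74.7 kb (74.1 against 39.8%) without overlap, and by 28.7 points at 70.6 kb (64.2 against 35.5%), with overlap, while the maternal allele differed by 11.7 and 9.17 points.

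The test of the difference itself, maternal minus paternal in epiblast against ExE, gave -57.1 points at 12.6 kb, -42.3 at 10.2 kb, -30.6 at 7.55 kb and -30.7 at 5.48 kb downstream. At Liz it gave -22.6 points at 74.7 kb and -19.6 at 70.6 kb, where the negative sign means a larger maternal excess in ExE. None of the 15 windows passed (adjusted p = 0.932 for each of these 6), and none of 237650 windows in the genome did by limma, while 1 window of the locus was higher and 6 lower at an unadjusted p under 0.05, against 2.62 and 2.67% of all windows. Averaged over the 4 windows on the Zdbf2 side of the interval that had all values, the maternal minus paternal difference was -63.9 points in epiblast and -30.5 in ExE. The percentages are means over all cells of a sample, so fewer cells with an allelic difference and a smaller difference in each cell cannot be told apart.

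The windows called in epiblast were compared with those elsewhere. Limma called 20 autosomal windows in epiblast, with differences of 61.4 points or more in either direction, and the 18 outside the locus lay at or near Mest, Peg3, Kcnq1ot1, Peg10, Peg13, Impact, Inpp5f, Zrsr1, Gnas, Airn, H19 and Gm27528, the last next to Meg3. In these 18 the ExE difference was 52.0 to 121% of the epiblast difference, with a median of 94.2%. At 12.6 and 10.2 kb upstream of Zdbf2 it was 35.7 and 43.8%, below each of the 18. These windows were chosen on their epiblast values, which makes the shares a description. Among a list of 16 genes with maternal and 3 with paternal germline marks, 13 of 154 windows of the former were called maternal higher in epiblast and 1 of 29 of the latter paternal higher. In ExE it was 15 of 217 maternal higher with 1 paternal higher, and 3 of 43 paternal higher. No window of either list was called for a difference between the tissues by limma, as at Zdbf2.

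**Figure D3:**
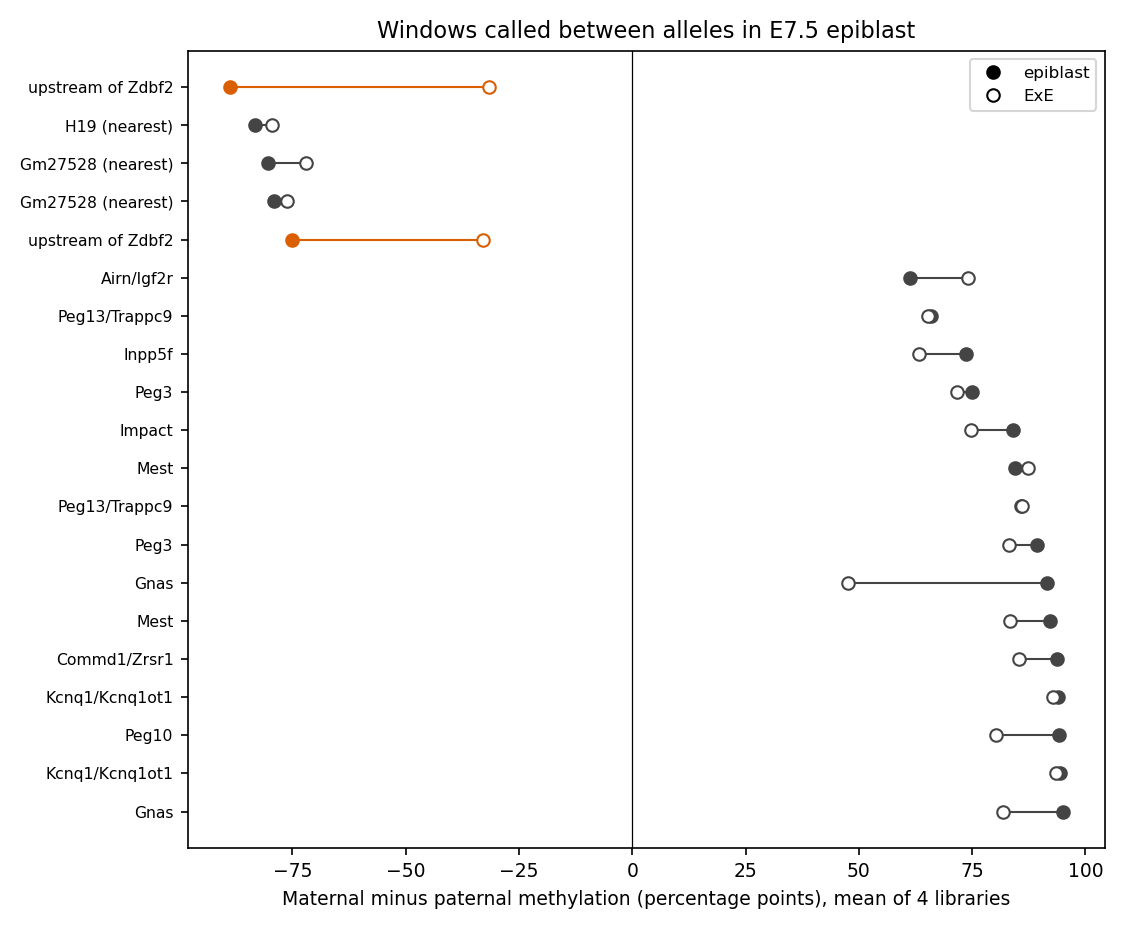
Mean maternal minus paternal difference in percentage points over 4 libraries for each of the 20 autosomal windows called in E7.5 epiblast, 1 row per window named by its gene or nearest gene, with filled circles for epiblast and open circles for ExE; values below 0 are paternally methylated, and orange marks the windows of the locus. The 2 windows upstream of Zdbf2 lie at 35.7 and 43.8% of their epiblast difference, where the other rows keep 52.0 to 121%.

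By likeness over the 16 allele values (root mean square difference, 237650 windows), the pattern of the 12.6 kb window was closest to windows at Nespas in Gnas (16.7 points), near H19 (20.1), at Gm27528 (20.4), near Gm35371 (25.5) and near Dlk1 (26.0). The order rests on both tissues: in ExE, where the 12.6 kb window had 31.0 and 62.7%, the Nespas window had 14.6% on the maternal and 78.8% on the paternal allele. The 70.6 kb window at Liz had among its closest windows those at Plagl1 (10.3), near Gm9873 (10.4), at Pde10a (10.5) and near 4930517M08Rik (10.8). The Plagl1 window, beside a maternal germline mark, had 90.5 and 61.2% in epiblast and 76.3 and 40.4% in ExE for the maternal and paternal allele. The window near Gm9873 had 79.6 and 79.7% in epiblast and 79.6 and 34.9% in ExE. A small distance thus did not require a difference between the alleles in epiblast.

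Without the split by allele both windows lay at middle levels. At 12.6 kb the E7.5 libraries read 49.2, 53.1, 37.1 and 58.5% in epiblast and 43.8, 39.2, 58.8 and 34.4% in ExE. At 10.2 kb they read 44.2, 36.8, 47.1 and 35.0%, and 47.9, 50.6, 39.5 and 32.4%. The tissues overlapped at both windows, and the differences of 5.41 and -1.87 points had adjusted p of 0.425 and 0.686. Relative to the mean of each library they were -10.9 and -18.2 points, and the latter passed (adjusted p of 0.135 and 0.00334). The unsplit value lay close to the mean of the alleles, with a median gap of 3.23 points over 15 windows in epiblast and 2.25 over 24 in ExE.

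Epiblast is more methylated than ExE over most of the genome, by a median of 16.6 points at E6.5 and 16.5 at E7.5, and the locus was read against that. At E7.5 limma called 18 of 34 windows higher in epiblast and 4 lower, against 82.9 and 1.3% of all autosomal windows. With libraries centred on their mean it called 1 higher and 15 lower, against 19 and 20.8% of all windows, and 5 of the 22 calls were shared in the same direction. The tissues did not overlap at 15 windows with epiblast higher and 3 with ExE higher (73.8 and 1.35% of all windows). Of the 10 windows next to Zdbf2, 1 was called higher, at 29 kb (14.9 points, adjusted p = 0.0245), 2 were called lower, and the median difference was -1.49 points. In Gpr1 all 6 windows were called higher, with a median of 15.9 points, and so were the 4 windows on the Gpr1 side of the interval, with a median of 18.8. In Zdbf2 4 of 9 windows were called higher and 2 lower, with a median of 8.12 points, and below Gpr1 2 of 4 were called higher, with a median of 7.12. At E6.5, 8 of 22 windows were called higher and none lower (59.6 and 0.663% of all windows), none of them among the 7 tested next to Zdbf2, whose median difference was 2.98 points. With libraries centred on their mean none was called higher and 3 lower, against 6.25 and 8.66% of all windows, none of them among the 8. With the replicate number as a block 0 were called, and without ExE B6/CAST 2 it was 5 of the 8. The calls over all windows fell as well, from 151238 of 250886 to 53533 with the block and to 122305 of 250905 without that library. Epiblast was higher without overlap at 1 of the 22 and ExE at none (17.1 and 0.345% of all windows).

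**Figure D4:**
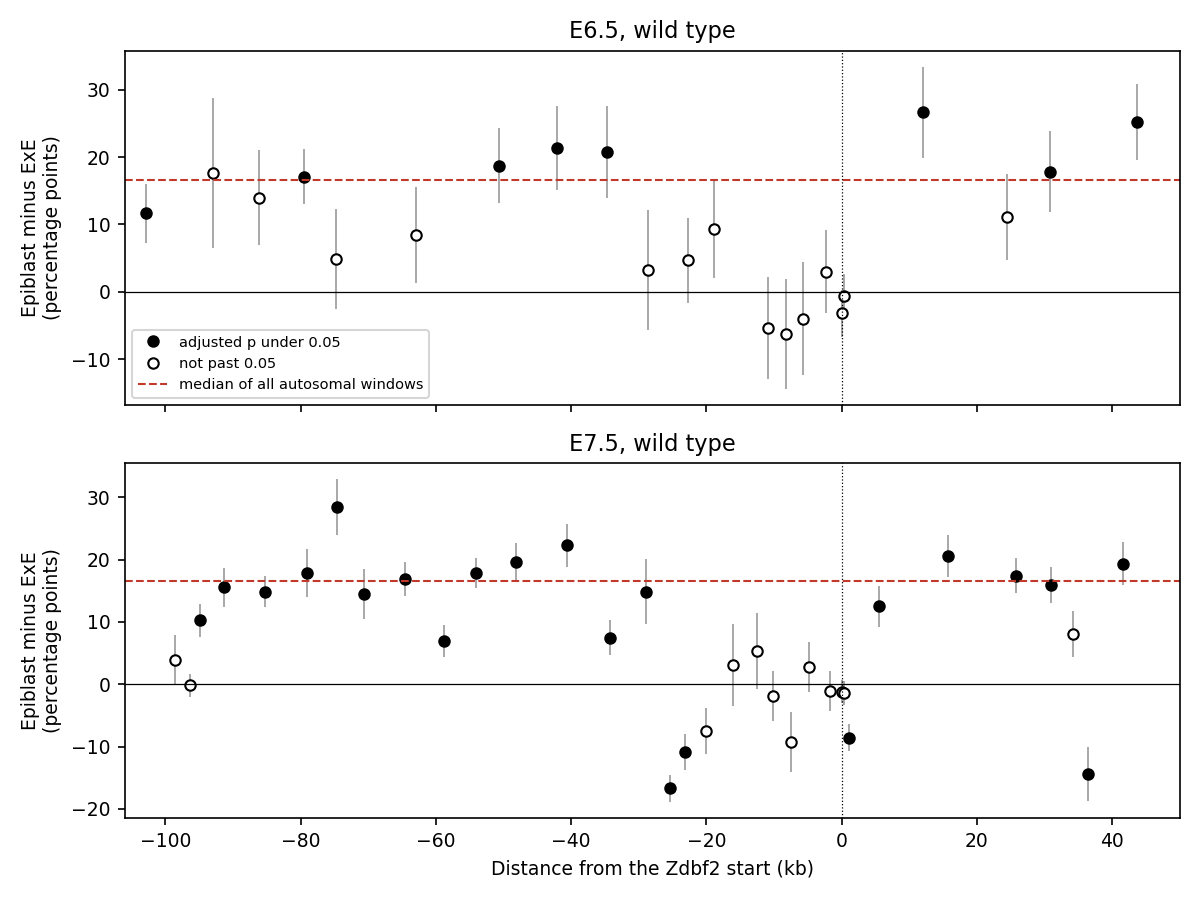
Epiblast minus ExE methylation in percentage points for each tested window of the locus at E6.5 and E7.5, against distance from the Zdbf2 start in kb, with limma standard errors; the dashed line is the median of all autosomal windows (16.6 and 16.5 points). At E7.5 the windows between 25.3 kb upstream of Zdbf2 and its start lie from -16.7 to 5.41 points, under the line, and the window at 29 kb lies at 14.9.

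The 4 windows called lower in epiblast at E7.5 lay over 1700039I01Rik, beside it and in Zdbf2. Over 1700039I01Rik, 25.3 kb upstream of Zdbf2, the E7.5 epiblasts were at 0, 3.25, 0.672 and 1.63% and the ExE at 15.3, 20, 17.9 and 19.3%. ExE was higher without overlap, by 16.7 points (SE 2.13, adjusted p = 0.0002). The next window, at 23.2 kb, was at 24.2, 19.6, 27.6 and 27.1% in epiblast and 26.8, 36.5, 42.8 and 36.0% in ExE, a difference of -10.9 points (adjusted p = 0.0068) with a narrow overlap. In the last part of Zdbf2, 36.4 kb downstream of its start (chr1:63309264-63310034), the epiblasts were at 10.6, 23.3, 15.5 and 13.8% and the ExE at 42.0, 23.5, 29.8 and 25.6%, a difference of -14.4 points (adjusted p = 0.0127). At 1.14 kb downstream of the start the difference was -8.54 points (adjusted p = 0.00622). At E6.5 the window over 1700039I01Rik, with other borders, was at 0 to 9.41% in wild-type epiblast and 18 to 30.3% in ExE in the libraries with a value. As 2 of the 10 wild-type libraries had none, it was not tested in the main fit. The fit that allowed 1 missing library per group tested all 31 windows of the locus and called 2 lower in epiblast.

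At Liz the unsplit E7.5 values at 74.7 kb were 81.9, 78.8, 82.5 and 85.8% in epiblast and 66.0, 53.1, 41.9 and 54.6% in ExE. The tissues did not overlap, and the difference of 28.4 points (adjusted p = 0.00051) exceeded the genome median. At 70.6 kb the values were 73.7, 56.2, 75.3 and 68.5% against 56.0, 47.4, 54.9 and 57.1%, a difference of 14.5 points (adjusted p = 0.00849) with overlap. Relative to the mean of each library the difference at 70.6 kb became -1.79 points, and that at 5.48 kb downstream of the Zdbf2 start changed from 12.6 to -3.78. At E6.5 the 74.8 kb window gave 4.86 points (adjusted p = 0.581). The E6.5 and E7.5 tables were not compared by a test, since their windows and library types differ.

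The maternal knockout of Dnmt3a and Dnmt3b was available at E6.5 and only without the split by allele. In matDKO/CAST the mean values at the start of Liz were lower than in B6/CAST, and those next to Zdbf2 in epiblast shared no direction, with 2 of 4 windows higher. At 74.8 kb the ExE was at 39.3, 18.9 and 31.0% in matDKO/CAST and 56.2 and 70.4% in B6/CAST, with CAST/B6 at 69.4 and 63.4%. The knockout libraries lay below every wild-type library, at a difference of -33.6 points (SE 7.92, adjusted p = 0.132). The genome as a whole was lower as well, by a median of 12.4 points in ExE and 16.4 in epiblast. In epiblast the same window was at 36.5 and 40.5% in matDKO/CAST, 43.9, 73.4 and 58.1% in B6/CAST and 98.1, 67.6 and 77.4% in CAST/B6, a difference of -20 points from B6/CAST (SE 10.6, adjusted p = 0.177). Over the alternatives on the percent scale, centred libraries among them, the difference ran from -31.2 to -3.26 points in epiblast. In ExE it ran from -40.7 to -21.2 points. At 69.8 kb, which holds the body of Liz, ExE was at 21.2 and 18% against 42.3 and 60.6% in B6/CAST, and epiblast at 45.5 and 33.3% against 34.0 and 54.4%, where the groups overlapped.

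In epiblast limma called 4 of 22 windows lower in matDKO/CAST and none higher, against 23.4 and 0.0291% of all windows. These were at 103, 93 and 50.6 kb upstream and 43.6 kb downstream of the Zdbf2 start, that is in Ndufs1, a subunit of mitochondrial complex I, over Eef1b2, a translation elongation factor, on the Gpr1 side of the interval and over the end of Zdbf2. The largest was at 93 kb, at 31.8 and 25.0% in matDKO/CAST and 65.4, 75 and 68.0% in B6/CAST (-41.1 points, adjusted p = 0.0148). The count of 4 was not stable: it was 1 to 7 with a single library left out and 0 on the logit scale or against the B6/CAST libraries alone. The calls over all autosomal windows moved as well. They were 45064 in the main fit, 10485 to 55426 with a library left out, and 0 on the logit scale or against B6/CAST alone. In ExE none of 22 windows was called, nor any of 254322 in the genome (0% in each direction), with 4 of the locus lower at an unadjusted p under 0.05, as were 25.7% of all windows. Without regard to a test, matDKO/CAST lay below B6/CAST without overlap at 8 of 22 windows in epiblast and above it at 1 (49.4 and 0.784% of all windows), and below it at 11 of 27 in ExE and above it at none (47.7 and 0.589%).

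Next to Zdbf2 the 4 windows tested in epiblast had a median difference of 1.91 points, where all windows had -16.4. Their mean stood at 34.8% for matDKO/CAST (n = 2, SD 2.68), at 29.6% for B6/CAST (n = 3, SD 4.28) and at 48.8% for CAST/B6 (n = 3, SD 3.0). The mean of the knockout libraries thus lay between those of the crosses, and its distance from B6/CAST, 5.21 points, was 3.31 to 7.61 over the same 4 windows with a single library left out, the least without matDKO/CAST 3. At 5.75 kb, where the sign was positive, the values were 57.7 and 23.5% in matDKO/CAST and 26.9, 0 and 35.5% in B6/CAST, and at 2.32 kb they were 7.14 and 4.17% against 17.9, 0 and 7.50%. In ExE the 8 windows tested next to Zdbf2 had a median difference of -11.4 points, against -12.4 for all windows, and their mean stood at 32.9% for matDKO/CAST (n = 3, SD 2.98) and at 41.9% for B6/CAST (n = 2, SD 3.50). Whether these changes lie on the maternal or the paternal allele was not measured.

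**Figure D5:**
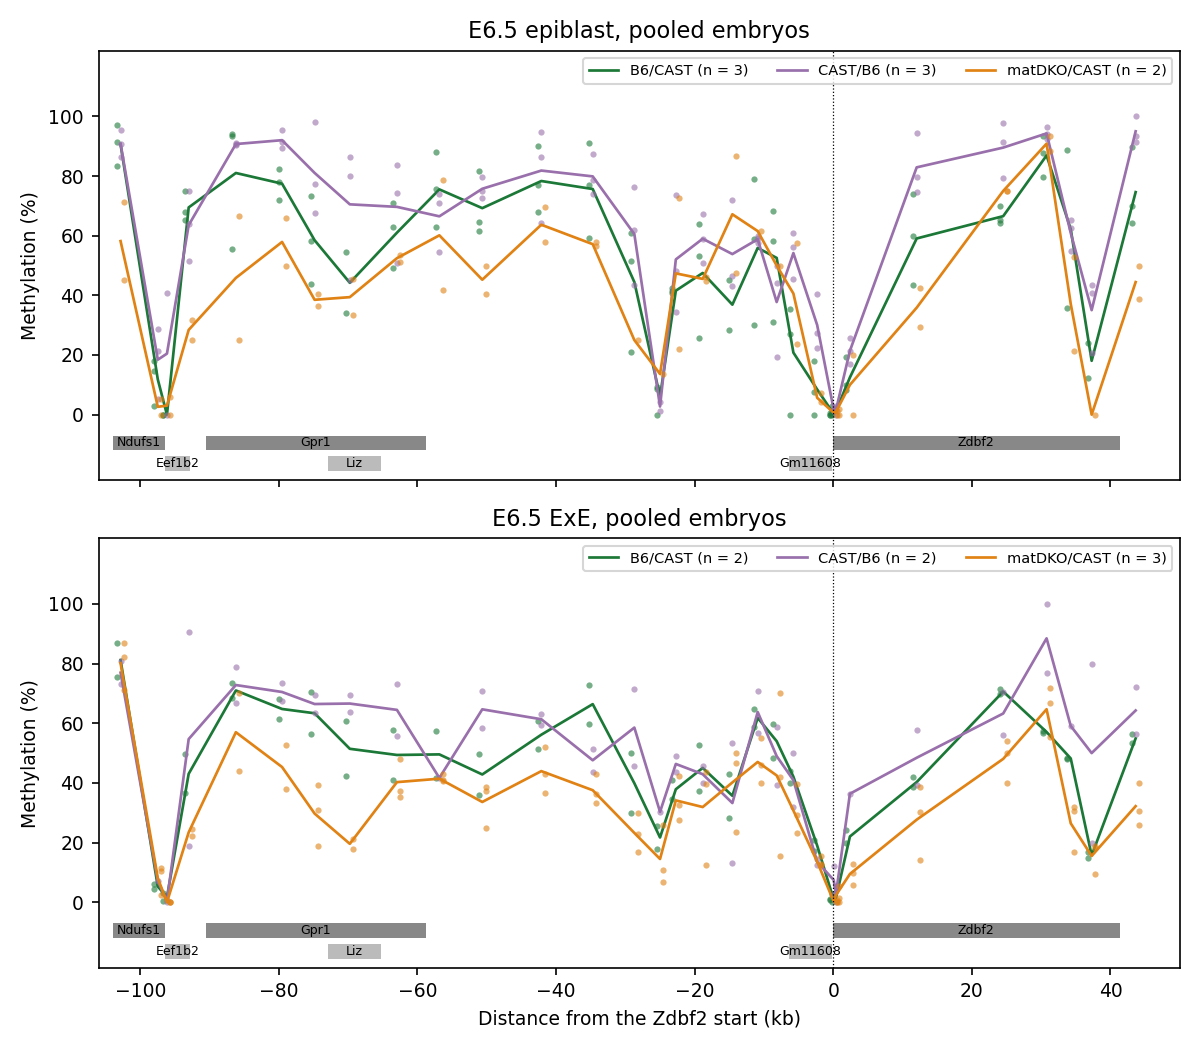
Percent methylation of each E6.5 library (points) and group means over libraries with a value (lines) along the locus for matDKO/CAST and the wild-type crosses B6/CAST and CAST/B6, against distance from the Zdbf2 start in kb, for epiblast and ExE. At 74.8 kb the matDKO/CAST libraries lie below the wild type in ExE, at 18.9 to 39.3% against 56.2 to 70.4%, and at 5.75 kb in epiblast they overlap with it.

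The reciprocal crosses were compared last. Limma called no window of the locus in either tissue at either day, nor any in the genome (0% in all 4 comparisons). At an unadjusted p under 0.05, CAST/B6 was higher at 6 of 25 windows in E6.5 epiblast, 2 of 26 in E6.5 ExE and 3 of 34 in E7.5 epiblast, where 18.8, 24.8 and 4.06% of all windows were, and lower at 2 of 34 in E7.5 ExE, where 2.92% were. The greatest gap in E6.5 epiblast was at 5.75 kb, with 56.1, 60.9 and 45.5% in CAST/B6 against 26.9, 0 and 35.5% in B6/CAST (33.4 points, adjusted p = 0.197). At 2.32 kb it was 27.3, 40.5 and 22.4% against 17.9, 0 and 7.50%. The library B6/CAST 3 was at 0 in both windows. All windows together were 8.36 points higher in CAST/B6 than in B6/CAST in E6.5 epiblast by the median, and 11.6 points higher in E6.5 ExE.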

How the data were processed

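DNA methylation was measured by PBAT in 23 libraries, 15 at E6.5 and 8 at E7.5. The authors trimmed the reads (Trim Galore 0.4.4), mapped and called them with Bismark 0.20.0 per the labels, and deposited percent methylation per window in 3 tables, named for windows of 100 CpG, without coverage: E6.5, E7.5 and E7.5 split by allele at strain-specific variants. Knockout reads that could not be assigned to an allele were aligned again by the authors to a genome with 129 variants, and 129 reads were joined to the maternal set. Which of these alignments the unsplit percentages rest on is not given in the sources used here. The authors defined the windows separately in the E6.5 and E7.5 tables. All sample columns were used (0 left out). A B6/CAST E6.5 epiblast column whose number fits no title was assigned by group alone and is given as the last B6/CAST value.

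Windows were assigned to GRCm38 coordinates as deposited and annotated with GENCODE M21. Percentages of all autosomal windows with a value in every library of a comparison were fitted with limma 3.58.1 (R 4.3.3), with Benjamini-Hochberg adjustment over all windows and a threshold of 0.05. Tissue was fitted with a cross term on wild-type libraries. MatDKO/CAST was fitted against B6/CAST, with CAST/B6 adding to the estimate of the spread. For the alleles, paternal was subtracted from maternal methylation in each library and the differences were fitted with a term for cross. Region means carry no p-value. Python 3.11.15, numpy 2.4.6 and pandas 2.3.3 were used for tables and matplotlib 3.10.9 for plots.

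Windows given in full, with the allele values they had, were those at the listed H3K4me3 peak of Liz, on the Zdbf2 side of the interval, over the Zdbf2 start, or past the adjusted threshold between alleles. For likeness, the window of Gpr1 and that of the interval with the largest mean absolute difference between alleles were compared with windows over 1 Mb away, neighbours less than 50 kb apart counted as 1, and the closest 5 were taken, of which 1 is not reported here. Windows of listed imprinted genes lie within 10 kb of the gene. The locus, its members and the lists were chosen with earlier results of these data known. The fits were tested on simulated data with 200 changed windows. There the allele fit in epiblast recovered 126 at a change of 30 points and 200 at 70 points. The allele by tissue fit recovered 0 and 199. In the real data the allele fit in epiblast called 20 of 238529 windows, none with a difference under 61.4 points in either direction. At 7.55 kb upstream of Zdbf2, -68.3 points did not pass (limma adjusted p = 0.158). The simulated counts therefore do not measure how many differences the fits missed in the real data. The labels do not say whether libraries of a group came from separate litters, so p-values measure the spread between these samples. Alternatives were the logit scale (values held between 1 and 99%), other eBayes settings, fewer or more windows, other covariates, centred libraries and each library left out, for region means also over the same windows, which was added after seeing the data. A coverage minimum could not be applied.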

Additional observations from a re-analysis of the deposited data

Results flagged for a closer look

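At 4 windows the maternal minus paternal difference had opposite signs in B6/CAST and CAST/B6 in every library, 1 of 15 windows tested in epiblast and 3 of 24 in ExE, against 14.2 and 15.9% of all autosomal windows. The values given are the cross terms of the limma fit, each the distance of B6/CAST from the mean of both crosses, with CAST/B6 as far on the other side, and with adjusted p from 0.539 to 0.768, none past 0.05. In ExE the term was -16.4 points at 79.1 kb, in Gpr1, with differences of -26.3 to -7.20 in B6/CAST and 12.9 to 19.4 in CAST/B6. It was 14.0 points at 29 kb, with 15.4 in both B6/CAST embryos and -17.4 to -7.95 in CAST/B6. It was -4.90 points at 64.5 kb in ExE and 8.32 points at 40.6 kb in epiblast.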

How the results depend on the processing

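The direction of the allele difference at Liz and at 12.6, 10.2 and 7.55 kb upstream of Zdbf2 was the same under every alternative run, while the number of calls was not. The 2 calls between alleles in epiblast became 0 on the logit scale, 0 with trend and robust settings, 0 with windows lacking 1 library included, 1 with the replicate block and 0 to 0 with each library left out. In the same order the calls over all windows, 20 in the main fit, became 5, 0, 0, 17 and 0. Without windows at 0 or 100% there were 3 at the locus and 8 over all windows. Of the 3, 1 was among the 2, and 7.55 kb and 5.48 kb downstream then passed (adjusted p = 0.0130 and 0.0436). Over the alternatives the adjusted p ran from 0.00736 to 0.955 at 12.6 kb and from 0.00396 to 1 at 10.2 kb. The count of tissue calls at E6.5, 8 higher in epiblast, became 3 with libraries centred on their mean, all lower and none among the 8. It was 0 with the replicate block and 5 to 9 with a library left out, the fewest without ExE B6/CAST 2. With the block and without that library the calls over all windows fell as well. With windows lacking 1 library of a group included, 9 of 31 were called higher and 2 lower (182807 and 2151 of 316628 over all windows). Without ExE CAST/B6 1, 8 of 25 were called higher and 1 lower (156695 and 1624 of 270768). At E7.5 centring turned 18 higher and 4 lower into 1 and 15. The count of matDKO/CAST calls in epiblast, 4, became 0 on the logit scale, with the replicate block, with centred libraries or against B6/CAST alone. Over all windows these settings called 0 as well. Without the cross term it was 7, where 91792 of 192419 windows were called. It was 1 to 7 with a library left out (1 without any single CAST/B6 library or without B6/CAST 3 or the last B6/CAST, 2 without matDKO/CAST 3, 7 without B6/CAST 1). In ExE, 2 of 22 were called lower without the cross term, where 66824 of 254322 windows were. Samples with the same number did not deviate together (correlations from -0.0268 to 0.0506), so the numbers were not taken as a pairing, and the block changed no other count by over 1.5 times. Centring moved the mean tissue difference next to Zdbf2 from 0.637 to -15.0 points at E6.5 (-1.02 to 3.35 with a library left out) and from -2.13 to -18.5 at E7.5, and at Liz from 14.5 to -1.79. It moved the matDKO/CAST difference next to Zdbf2 from 5.21 to 22 points in epiblast (1.01 to 8.86 with a library left out, over 4 to 7 windows) and from -8.81 to 3.86 in ExE, where the median over windows gave -12.5. The mean allele difference there in epiblast was -67.4 to -49.9 points with a library left out, over 5 windows in place of 4. Leaving a library out changed which windows had every value. Over the same windows, an alternative chosen after seeing the data, the ranges were 3.31 to 7.61 and -67.9 to -59.2 points. The centred tissue difference at 5.48 kb downstream was -3.78 points. The cause of these shifts was not tested beyond the change of library level. Without coverage, counting error cannot be given for any window.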
